A study of Mus musculus with 100 samples.

Results

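The genes described here are 8 genes of skeletal muscle formation, Myf5, Myf6, Myod1, Myog, Myh3, Mylpf, Chrna1 and Chrng. They are 8 of the 23109 gene-level entries in the RNA sequencing tables of 37 mouse libraries, which fall into 18 groups (3 groups of 1 library, 11 of 2 and 4 of 3). They were chosen from their expression values in embryos at embryonic day 9.5 (E9.5), in embryoid bodies at day 10 and in neural cultures at day 16. Values in those samples are therefore given as a description with no test of the 8 genes, and the genes were tested only in E8.5 embryos, neural cultures at day 8, trophectoderm cultures and extraembryonic endoderm cultures.

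The study asked, per its title, how the methyltransferase activities of MLL3 and MLL4 (genes Kmt2c and Kmt2d, histone H3 lysine methyltransferases that act at enhancers) bear on early development and on the differentiation of embryonic stem cells. All cultured cells carried Mll3-/-, and the reference cells (flox) were Mll3-/-;Mll4flox/flox while the KI cells were Mll3-/-;Mll4KI/KI, in clones numbered 27 and 48. Stem cells (day 0) and embryoid bodies (hanging-drop aggregates, days 4 and 10) had 1 flox library a day and 1 library of each KI clone. Neural cultures (embryoid bodies given retinoic acid and then plated, days 8 and 16), trophectoderm cultures (a doxycycline-inducible, T7-tagged CDX2 transgene, day 6) and extraembryonic endoderm cultures (retinoic acid and activin A, day 5) had 2 flox libraries and 1 of each KI clone. Whole embryos of these 2 stages, E8.5 and E9.5, were Mll3flox/KI;Mll4flox/+;Sox2-Cre (control) or Mll3flox/KI;Mll4flox/KI;Sox2-Cre (KI), with 3 embryos a group. Sox2-Cre recombines floxed alleles in the epiblast, so controls also carried a KI allele of Mll3 opposite a floxed one, and the labels do not spell out KI. Apart from the embryos and the 2 KI clones, nothing in the labels says that libraries of a group came from separate cultures, and p-values then measure only the spread between these libraries.

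Skeletal muscle of the trunk arises from the somites, in which the myogenic regulatory factors, a family of basic helix-loop-helix transcription factors, commit cells to the muscle fate and then drive their differentiation. Myf5 and Myod1 act in commitment, Myf6 (MRF4) in commitment and later in fibre maturation, and Myog (myogenin) in the fusion and differentiation of myoblasts. These factors bind DNA at E-boxes as dimers with E proteins. Myh3 encodes embryonic myosin heavy chain and Mylpf the fast-muscle regulatory myosin light chain, while Chrna1 and Chrng encode the alpha and the fetal gamma subunit of the muscle acetylcholine receptor.

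Promoters of 6 of the 8 genes were found by symbol in the RefSeq promoter table (GRCm38.p6), and Myf6 and Myod1 had no entry. The 250 bases before the transcription start were searched on both strands for the E-box CANNTG, for its form CAGCTG (each CAGCTG also matches CANNTG) and for the MCAT motif CATTCC. The sequences of Myog, Mylpf, Chrna1 and Chrng are shown because these genes share E-boxes but differed in where they were expressed (below, E-boxes are in capitals and each sequence runs 5′ to 3′ on the gene's strand up to the base before the start). Myog lies at chr1:134289754-134290003 (plus strand), Mylpf at chr7:127211358-127211607 (plus), Chrna1 at chr2:73580339-73580588 (minus) and Chrng at chr1:87205561-87205810 (plus), in GRCm38.p6 coordinates, whereas mm9 is the build named for the deposited tables.
Myog: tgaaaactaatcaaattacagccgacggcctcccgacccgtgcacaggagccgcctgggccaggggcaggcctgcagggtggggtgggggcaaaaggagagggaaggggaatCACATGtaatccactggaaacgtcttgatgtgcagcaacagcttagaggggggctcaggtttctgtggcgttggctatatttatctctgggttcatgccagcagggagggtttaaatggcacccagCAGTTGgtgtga
Mylpf: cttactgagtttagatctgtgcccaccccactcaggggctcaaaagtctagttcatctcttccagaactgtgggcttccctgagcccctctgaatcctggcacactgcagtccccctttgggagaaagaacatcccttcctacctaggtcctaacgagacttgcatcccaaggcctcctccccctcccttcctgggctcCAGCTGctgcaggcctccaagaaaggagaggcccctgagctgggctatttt
Chrna1: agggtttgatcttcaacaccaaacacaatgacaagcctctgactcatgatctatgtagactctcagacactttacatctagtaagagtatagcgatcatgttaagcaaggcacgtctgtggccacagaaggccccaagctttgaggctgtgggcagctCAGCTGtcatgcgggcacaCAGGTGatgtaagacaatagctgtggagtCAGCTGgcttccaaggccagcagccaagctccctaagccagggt
Chrng: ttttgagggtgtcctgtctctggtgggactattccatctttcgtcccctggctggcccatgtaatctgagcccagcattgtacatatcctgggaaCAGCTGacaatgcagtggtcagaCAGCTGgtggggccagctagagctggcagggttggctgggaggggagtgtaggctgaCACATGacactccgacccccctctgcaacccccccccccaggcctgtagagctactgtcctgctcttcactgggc
Chrng held 3 E-boxes, of which those at -155 and -132 (first base, counted from the start) were CAGCTG. Chrna1 also held 3, with CAGCTG at -92 and -44. Mylpf held 1, a CAGCTG at -51, and Myog held 2 others, at -138 and -12. Myh3 held 1 E-box at -191, and none was found in the 250 bases of Myf5. Of 27025 promoters of the same length, 66.0% held CANNTG, 12.8% held CAGCTG and 12.6% held CATTCC. None of the 6 promoters held the MCAT motif, and a match or its absence is a description of these letters only.

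**Figure D1:**
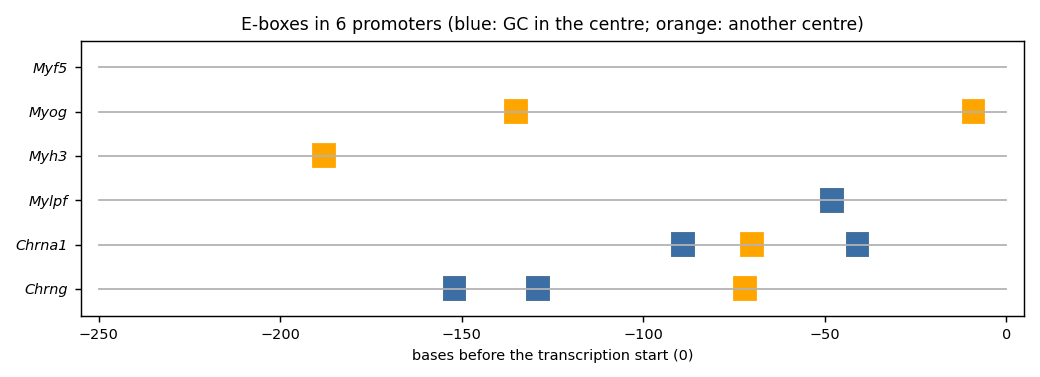
Positions of E-boxes in the 250 bases before the transcription start of 6 genes, drawn as boxes on a line for each gene, with the distance from the start in bases on the x axis. Blue boxes are E-boxes with GC in the centre, found in Mylpf, Chrna1 and Chrng, orange boxes are other E-boxes, and the line of Myf5 has none.

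Gene-level read totals ran from 18.9 to 59.9 M reads a library, and from 20.1 to 26.9 M in embryos. Levels are given as CPM (read counts scaled to library size) after scaling all 37 libraries together, and a count of 0 allows up to 3 reads, or 0.055 to 0.18 CPM, a limit that covers counting error only. Counts of 1 to 10 reads were even in 65.1% to 70.2% of cases in the 20 embryo, trophectoderm and endoderm tables and in 38.9% to 42.4% in the other 17, so levels are compared across these sets only side by side. Kmt2d had between 141 and 343 CPM and Kmt2c between 28.6 and 107 CPM in every library, the Mll3-/- cells included, and whether the counted stretches lie in the altered parts of either gene is not given, so these counts do not check the labels. The labelled cell types had their defining genes, with Pou5f1 at 1520 to 1720 CPM in stem cells and Tubb3 at 406 to 1870 CPM in neural cultures, but Sox17 was at 72.5 to 84.6 CPM in flox and 11.2 to 11.5 CPM in KI endoderm cultures. Trophectoderm cultures held Cdx2 at 26.1 to 28.8 CPM in flox and 100 to 106 CPM in KI (endogenous and transgene reads were not separated), and Pou5f1, a pluripotency factor, at 214 to 215 and 61.7 to 107 CPM.

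At E9.5 the myogenic regulatory factors Myf5, Myf6 and Myog and the myosin gene Myh3 had more reads in every control embryo than in any KI embryo. Myog stood at 2.27, 3.30 and 3.12 CPM in the controls and at 0, 0 and 0.165 CPM in the KI embryos, the last from 4 reads. The group means were 2.9 ± 0.548 and 0.0550 ± 0.0953 CPM (SD, n = 3 each), and no fold is given because the KI mean lies below what 3 reads are worth. Myf5 had 3.13, 1.72 and 2.74 CPM in controls and 0.0781, 0.400 and 0.330 CPM in KI embryos, a mean 9.40-fold lower. Each KI embryo thus kept some Myf5 reads, between 2 and 10. Myf6 had 0.447, 0.859 and 0.707 CPM in controls and no read in any KI embryo, which makes it at least 5.58-fold lower against a limit of 3 reads a library. Myod1, the other factor of commitment, was low everywhere, at 0.223, 0.275 and 0.166 CPM in controls (4 to 8 reads) and at 0.156, 0.0800 and 0 CPM in KI embryos. The third control and the first KI embryo each had 4 reads, so its groups were kept apart by library scaling alone.

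Myh3, the embryonic myosin heavy chain, had 7.71, 9.48 and 3.99 CPM in control embryos and 0.156, 0.320 and 0.248 CPM in KI embryos, a mean 29.3-fold lower. The third control stood below the other controls and still above every KI embryo. Mylpf had 2.87, 3.13 and 2.74 CPM in controls against 1.29, 1.84 and 1.28 CPM in KI embryos, 1.98-fold lower and without overlap, and these counts may hold reads of the overlapping gene Septin1, described further on. The receptor subunits parted: Chrng had 0.894, 0.756 and 0.457 CPM in controls and 0, 0 and 0.330 CPM in KI embryos, whereas Chrna1 overlapped between groups, at 0.447 to 0.665 and 0.360 to 0.585 CPM. The third KI embryo alone held the Chrng and Myog reads of its group, 8 and 4 reads.

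In all, 6 of the 8 genes were lower in every KI embryo than in every control at E9.5 both in reads and in CPM, Myod1 in CPM alone, and Chrna1 overlapped. Of the 15436 genes that passed the low-count filter of the embryo fit (7 of the 8 genes, all but Myod1), 20.5% were lower without overlap and 23.5% higher in KI, and because the genes were chosen on this contrast nothing is read from the difference. In whole embryos, fewer muscle cells and less RNA per cell cannot be told apart. The titles give the E9.5 embryos 2 numbers, the first shared by 2 control and 2 KI embryos and the other by 1 of each, whose meaning the labels do not state. Within the first and within the other number the KI embryos had less Myog (0 against 2.79 and 0.165 against 3.12 CPM), less Myf5 (0.239 against 2.42 and 0.330 against 2.74) and less Myh3 (0.238 against 8.60 and 0.248 against 3.99). For Chrng the values were 0 against 0.825 CPM within the first number but 0.330 against 0.457 CPM within the other (8 against 11 reads).

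**Figure D2:**
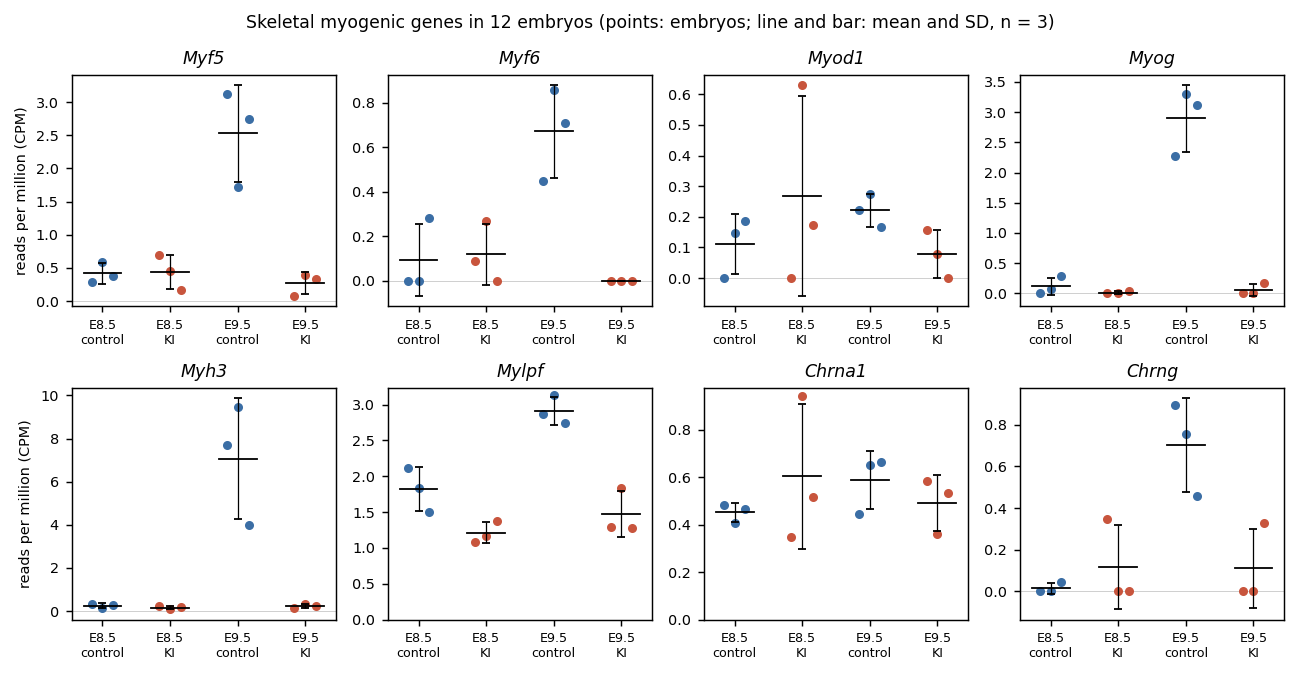
Levels in CPM of the 8 genes in 12 embryos, with a panel for each gene and the 4 groups on the x axis; points are embryos, lines are means and bars are SDs (n = 3). In Myf5, Myf6, Myog, Myh3 and Chrng the 3 control embryos of E9.5 stand above all 9 others, and in Chrna1 the groups overlap.

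At E8.5 most of these genes were near the limit of detection in both genotypes. Myog was at 0, 0.0737 and 0.280 CPM in E8.5 controls and at 0, 0 and 0.0432 CPM in KI embryos, and Myh3 at 0.338, 0.147 and 0.280 against 0.217, 0.0900 and 0.173 CPM. Myf5 was already present, at 0.290, 0.590 and 0.374 CPM in controls and 0.696, 0.450 and 0.173 CPM in KI embryos. Of the 7 genes that passed the filter of the embryo fit, Myf5, Chrna1 and Mylpf had 10 or more reads in at least 3 E8.5 embryos. None of these 3 was called between genotypes at E8.5 by edgeR's quasi-likelihood test with Benjamini-Hochberg adjustment over all genes or by DESeq2, and none had an unadjusted p under 0.05. Of all 15436 genes 5.46% were called, or 843 genes, which became 363 and 488 without the third and the first control embryo and 377 and 546 without the third and the first KI embryo. Mylpf differed by -0.58 ± 0.32 on the log2 scale (SE, adjusted p = 0.336), with its 3 KI embryos at 1.09 to 1.38 CPM below the 3 controls at 1.50 to 2.12 CPM. Chrna1 differed by 0.42 ± 0.56 (adjusted p = 0.749) and Myf5 by 0.05 ± 0.60 (adjusted p = 0.978), which leaves room for changes in either direction. Myf6, Myog, Chrng and Myh3 had at most 8 reads in any E8.5 embryo and passed the filter through the E9.5 controls, so that a test at E8.5 says nothing about them. Values without overlap were found for 12.8% of all genes in the lower and 12.0% in the higher direction at this stage and, of the 8, for Mylpf alone, lower in KI.

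From E8.5 to E9.5 the mean level in controls was 27.7-fold higher for Myh3, 6.06-fold for Myf5 and 1.60-fold for Mylpf. Myog went from 8 reads in the 3 controls together to 61, 96 and 75 reads, and Myf6 from 6 reads in 1 control to 12, 25 and 17. None of these 5 genes overlapped between the stages. Chrng had 24, 22 and 11 reads in the E9.5 controls and 1 read in the 3 E8.5 controls together. With Chrng, 6 of the 8 genes were higher at E9.5 without overlap, where 18.1% of all genes were (21.8% lower), and Chrna1 and Myod1 overlapped. In KI embryos the 8 genes overlapped between the stages without exception, where 22.5% of all genes were lower and 23.0% higher without overlap at E9.5, with Myh3 at 0.241 ± 0.0820 CPM at E9.5 and 0.160 ± 0.0646 at E8.5, and Myf5 at 0.269 ± 0.169 and 0.440 ± 0.262. These comparisons share the E9.5 samples that chose the genes and share their groups with the comparisons between genotypes.

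Between genes, levels were compared per transcript length with the deposited RPKM values. In E9.5 controls Mylpf had the highest median (3.18, range 2.95 to 3.52), then Myog (1.71, 1.29 to 1.89), Myh3 (1.08, 0.541 to 1.34) and Myf5 (1.07, 0.701 to 1.26), and the ranges of Myog and Myh3 and of Myh3 and Myf5 overlapped. Myf6 followed at 0.460 (0.300 to 0.585), overlapping with Myh3, and Chrng at 0.334 (0.193 to 0.390), which overlapped, and Chrna1 at 0.126 and Myod1 at 0.101 were lowest. In E9.5 KI embryos only Mylpf kept a median RPKM above 1, at 1.40, while Myf5 had 0.131 and Myog, Myf6 and Chrng a median of 0.

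Other genes of skeletal muscle, in 6 lists of 76 genes that were compiled with earlier results of these data known, were tested in the same fit. At E9.5, 22 of the 58 that passed the filter rose in KI embryos and 9 fell, against 14.6% and 14.9% of all genes tested (29.5% in both directions), and the median log2 fold change was 0.34, against 0.009 over all genes. The direction differed by list. Sarcomere genes shared with the heart accounted for 12 of the rises, out of 14 tested (median 1.27), with Hrc, a calcium-binding protein of the sarcoplasmic reticulum, at 2.00 ± 0.25 (adjusted p = 1.1e-05) and Myh7, the slow and cardiac myosin heavy chain, at 1.77 ± 0.37 (adjusted p = 0.00817). Beside them, 7 of 10 heart markers rose and 1 fell, and their summed level was 458 to 843 CPM in KI and 221 to 258 CPM in control embryos with no marker at 0. Smooth muscle markers rose in 6 of 8 cases, at 371 to 516 against 202 to 206 CPM summed. The part of these cell types in the muscle lists was not tested.

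Among the 44 genes tested in the 5 lists without the heart-shared sarcomere, 10 rose and 9 fell at E9.5, with a median of -0.16. Of skeletal sarcomere genes, Tnnc2 (fast troponin C) fell by 3.39 ± 0.58 on the log2 scale (adjusted p = 0.000228), from 2.00 to 0.186 CPM in mean, and Tnnt3 (fast troponin T) fell by 1.04 ± 0.35 (adjusted p = 0.0286), whereas Tnnt1 (slow troponin T) rose by 0.87 ± 0.32 (adjusted p = 0.0482). Among cofactors and fusion genes, Cdh15 (M-cadherin of muscle precursors) fell by 1.84 ± 0.34 (adjusted p = 0.00053), and Smyd1 and Rbm24, which the heart also uses, rose by 1.08 and 1.07. Cacna1s, the calcium channel of the skeletal T-tubule, fell by 2.84 ± 0.96 (adjusted p = 0.0325), and Pgam2 and Jph1 rose by 1.08 and 0.75. Under at least 1 alternative (most often a library left out) the calls of Tnnt1 (adjusted p up to 0.183), Cacna1s (0.148), Tnnt3 (0.122, with overlapping groups) and Pgam2 (0.0805) ended. Neuromuscular junction genes were mostly under the filter, and neither of the 2 tested was called by edgeR or DESeq2 (1 had an unadjusted p under 0.05).

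Regulators that act before the myogenic factors also parted in direction at E9.5. Of 14 tested, 5 fell, among them these genes of the somites and their muscle precursors: Meox2 by 1.19 ± 0.22 (adjusted p = 0.000478), Eya2 by 1.06 ± 0.16 (adjusted p = 5.62e-05), Meox1 by 0.96 and Pax3 by 0.46. The 3 that rose included Tcf21 (1.69 ± 0.20, adjusted p = 4.03e-06) and Tbx1 (0.80 ± 0.23, adjusted p = 0.023, up to 0.0802 over the alternatives), which act in head and pharyngeal muscle precursors and in other mesoderm, the heart field included. Neuron markers moved with them: 6 of 9 fell, and their summed level was 70.8 to 74.3 CPM in KI and 200 to 280 CPM in control embryos of E9.5, beside 62.0 to 71.6 CPM in E8.5 controls. What these markers have to do with the muscle genes was not tested.

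At E8.5, 3 of the same 58 genes rose in KI embryos and 5 fell (3.63% and 1.83% of all genes). Tcf21 (0.75 ± 0.19, adjusted p = 0.0268) and Tpm2 (0.40) were among those higher. Cacna1s (-3.86 ± 1.01, adjusted p = 0.0325), Mybpc1, a slow-type myosin-binding protein (-2.20 ± 0.46, adjusted p = 0.0067), Meox1 (-1.04 ± 0.19, adjusted p = 0.0128) and Eya1 (-0.59) were among those lower. The call of each gene named here ended under at least 1 alternative, with adjusted p up to 0.189 for Eya1, 0.183 for Tpm2, 0.123 for Tcf21, 0.116 for Cacna1s, 0.0556 for Meox1 and 0.0531 for Mybpc1. The 8 calls became 3 without the third control embryo, 4 without the first control or the second KI embryo and 5 without the first or the third KI embryo. Heart markers summed to 543 to 833 CPM in KI and 399 to 608 CPM in control embryos of E8.5, and 1 of 10 rose. Smooth muscle markers summed to 428 to 501 against 286 to 392 CPM there, and 1 of 8 rose. Of 9 neuron markers tested, 2 rose and 2 fell. Meox1 and Cacna1s were lower and Tcf21 and Tpm2 higher at E9.5 as well. In controls, 13 of the 58 rose from E8.5 to E9.5 (12.2% of all genes rose and 12.1% fell), led by Lbx1, which marks migrating limb muscle precursors (2.36 ± 0.44, adjusted p = 0.000589), Mybpc1 (2.29 ± 0.34) and Tnnc2 (2.28 ± 0.53), and 8 fell, among them Ttn and Rbm24. The genotype effect itself differed between the stages for 7 of the 58 (6.63% of all genes, 3.39% upward and 3.24% downward): Tnnc2 (-3.05 ± 0.84, adjusted p = 0.0341), Cdh15 (-2.37 ± 0.48, adjusted p = 0.0055) and Eya2 (-1.23 ± 0.23, adjusted p = 0.00254) were more negative at E9.5, and Hrc (1.60), Jph1 (1.04), Tcf21 (0.95) and Mef2c (0.76) more positive. The calls of Tcf21 (adjusted p up to 0.0971), Tnnc2 (0.081) and Jph1 (0.0522) ended under at least 1 alternative.

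**Figure D3:**
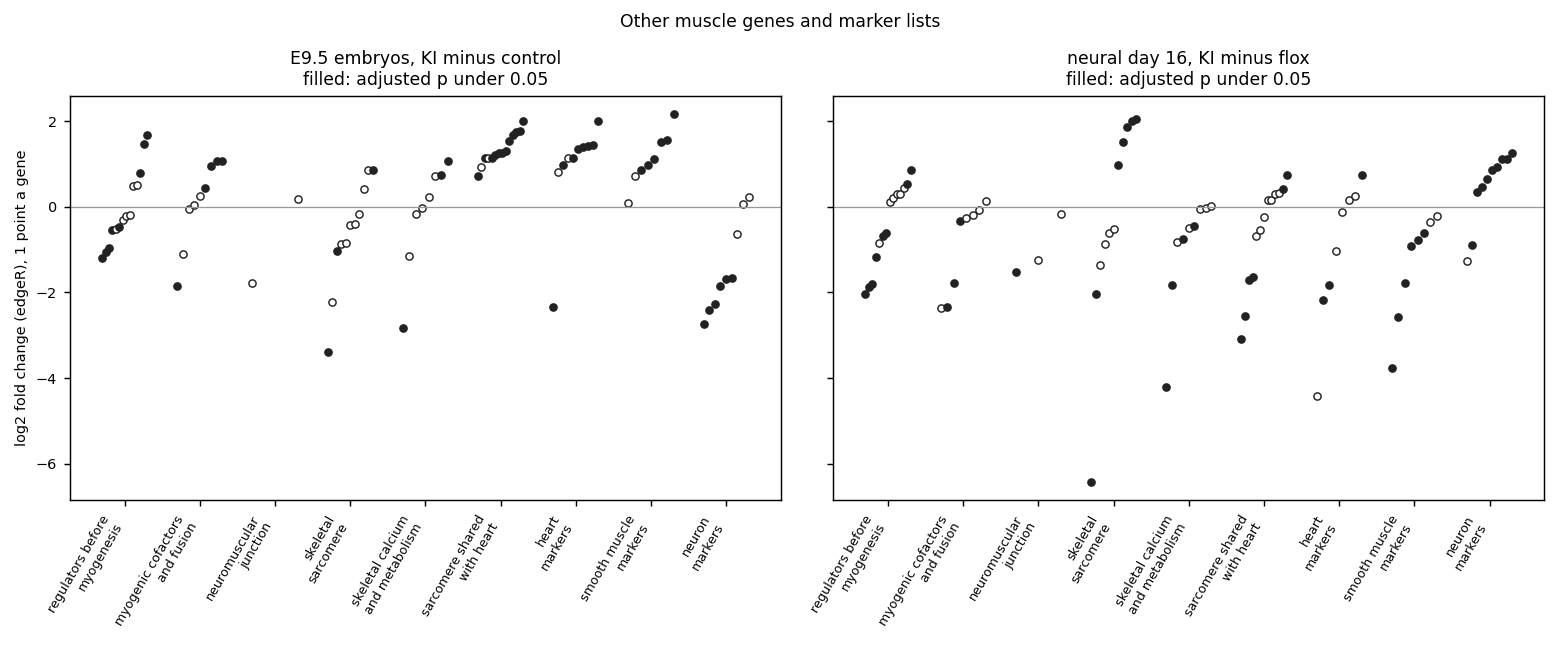
Log2 fold changes of other muscle genes and marker genes in E9.5 embryos (left, KI minus control) and neural cultures at day 16 (right, KI minus flox), with 1 point a gene, the lists on the x axis and filled points for an adjusted p under 0.05. At E9.5 the filled points of the heart-shared sarcomere list all lie above 0, while Tnnc2 at -3.39 and Cacna1s at -2.84 lie far below.

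In stem cells none of Myf5, Myf6, Myod1, Myog and Chrng had a read in any of the 3 libraries, which allows up to 0.14 to 0.18 CPM. The other 3 did. Myh3 had 1.35 CPM in flox and 6.86 and 6.91 CPM in KI clones 27 and 48, and Mylpf had 75.6 CPM in flox and 37.6 and 36.7 CPM in KI. Chrna1 was at 0.616 in flox and 0.510 and 0.373 CPM in KI. On the log2(CPM + 0.5) scale, a difference of at least 2-fold in both clones was found for Myh3 (1.99 and 2.00), as for 4.52% of the 14926 genes with 10 or more reads (2.63% were lower), and Mylpf missed the rule narrowly, at -1.0 in clone 27, just inside the limit, and -1.03 in clone 48, just past it. With 1 flox library a day there is no test within a day.

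In embryoid bodies of day 4, Myf5 was detected in both KI clones. It had 0 reads in flox and 1.45 and 1.96 CPM (31 and 42 reads) in KI clones 27 and 48, at least 11.2-fold higher in mean. Myh3 had 1.27 CPM in flox and 5.30 and 6.02 CPM in KI. These 2 genes were at least 2-fold higher in both clones, as were 1.40% of the 15816 genes with enough reads, and none of the 8 was lower, as 3.70% were. Myod1 had 0 reads in flox and 6 and 2 in KI, and Myf6 0 in flox and 1 and 2 in KI. Chrna1, at 0.152 CPM in flox and 0.657 and 0.420 CPM in KI, fell short of the 2-fold limit only because 0.5 CPM is added on this scale (3.54-fold higher in mean CPM, from 3 flox reads), and Mylpf (3.60 against 2.2 and 3.5 CPM) and Chrng (3 reads against 5 and 0) did not differ in 1 direction by more than the gap between the clones.

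At day 10 the order was the other way round, on fewer reads. Myog had 20 reads (0.769 CPM) in flox and 0 and 1 in KI, Chrng 11 reads (0.423 CPM) against 0 and 2, Myf5 7 reads (0.269 CPM) against 0 and 0, and Myod1 5 reads (0.192 CPM) against 0 and 0. Myog was at least 2-fold lower in both clones (-1.34 and -1.23 on the log2(CPM + 0.5) scale), as were 3.60% of the 16391 genes with enough reads, and none was higher, as 3.25% were. Myh3 stood at 0.346 CPM in flox and at 0.103 and 0.0417 CPM in KI, while Mylpf (0.692 against 0.615 and 0.667) and Chrna1 (0.115 against 0.256 and 0.167) did not share that direction or that size. All of these flox values come from 1 library, the day was among those that chose the genes, and heart markers summed to 1660 CPM in that library and to 170 to 227 CPM in the KI clones, smooth muscle markers to 1300 against 2480 to 2720 CPM. Their part in the muscle values was not tested. Between day 4 and day 10, the KI clones went from 113 and 129 reads to 2 and 1 in Myh3, and from 1.45 and 1.96 CPM to 0 in Myf5, at least 12.2-fold lower.

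Over the 3 days together, the genotype was tested in a fit in which differences between days stay in the spread. Its 6 KI libraries are 2 clones, each taken on 3 days, and its 3 flox libraries 1 a day, so the libraries are not independent replicates and its p-values may be too small. Of 51 other muscle genes, 1 was called, Actc1 (cardiac actin, also made in embryonic skeletal muscle), which fell by 3.02 ± 0.30 in KI (adjusted p = 0.00994), where 0.707% of all genes were called, 0.400% higher and 0.306% lower. DESeq2 called 9 of them and 15 had an unadjusted p under 0.05, and without the flox stem cell library the count was 10. Within the KI clones, 25 of 48 rose from day 4 to day 10 and 14 fell, in a comparison in which 73.3% of all genes were called, 36.7% upward and 36.6% downward. All 6 called skeletal sarcomere genes fell, including Mybpc2 (by 3.24 ± 0.47, adjusted p = 0.000509), and so did Ryr1, the skeletal calcium release channel (by 4.22 ± 0.30). Of 13 heart-shared sarcomere genes 10 rose, with Tnni1 at 6.27 ± 0.38, beside 8 of 10 heart markers.

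**Figure D4:**
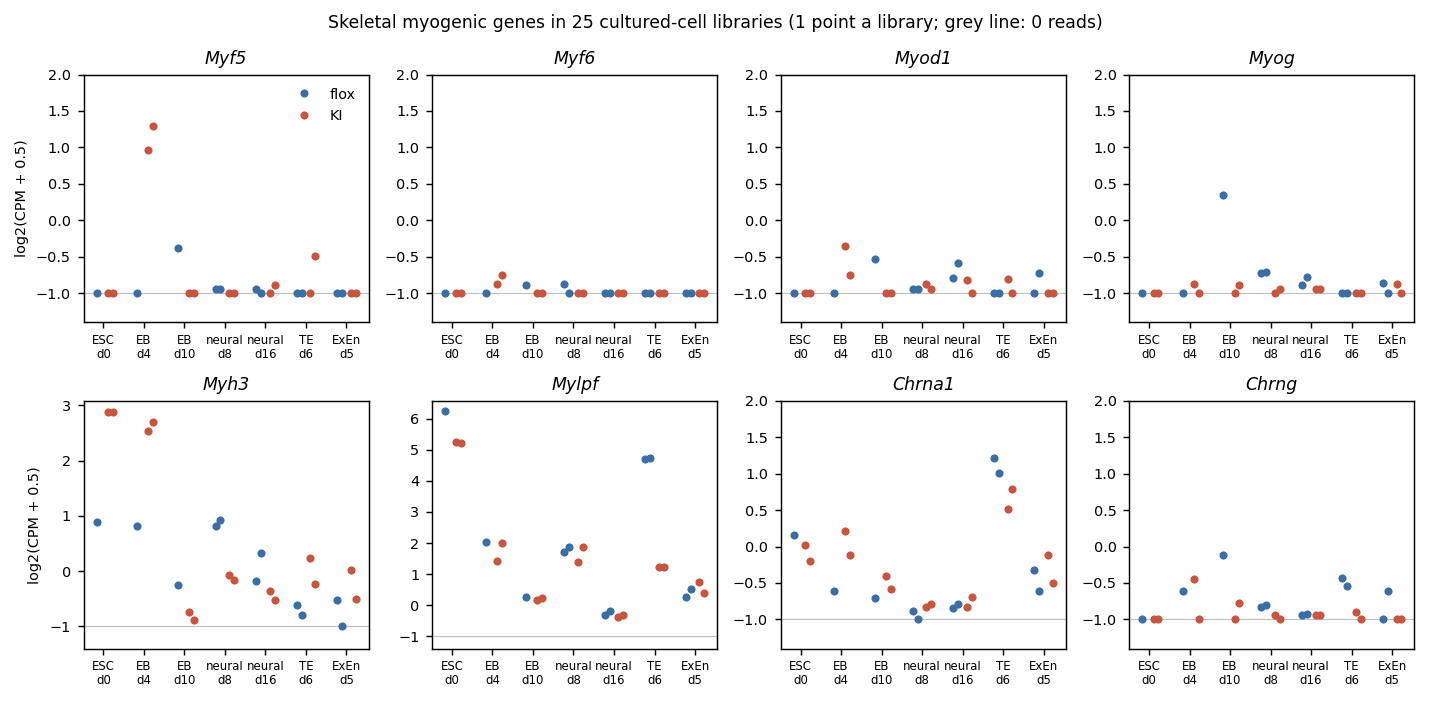
Log2(CPM + 0.5) of the 8 genes in 25 cultured-cell libraries, with a panel for each gene, the 7 cultures on the x axis, blue points for flox and red for KI libraries, and a grey line at 0 reads. Myf5 stands off the line in KI embryoid bodies of day 4, Myog in flox embryoid bodies of day 10, and Mylpf is highest in stem cells and flox trophectoderm cultures.

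Neural cultures held little of these genes. At day 8 Myog had 5 and 6 reads in the flox libraries and 0 and 1 in KI clones 27 and 48, Chrng 3 and 4 against 1 and 0, and Myf5, Myf6, Myod1 and Chrna1 at most 4 reads in any library. Myh3 had 1.27 and 1.39 CPM in flox and 0.453 and 0.391 CPM in KI, and it fell by 1.65 ± 0.31 on the log2 scale (edgeR adjusted p = 0.00245, 0.000278 to 0.0425 over the alternatives). Mylpf had 2.81 and 3.16 CPM in flox and 2.11 and 3.13 CPM in KI, and its difference of -0.17 ± 0.21 was within the spread (adjusted p = 0.661). These 2 were the only members of the 8 to pass the filter, and 1 of them was called where 19.5% of 16439 genes were.

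At day 16 the 8 genes again had low levels. Myh3 had 0.379 and 0.759 CPM in flox and 0.281 and 0.201 CPM in KI, Mylpf 0.304 and 0.380 against 0.260 and 0.301 CPM, and Myod1 4 and 6 reads against 3 and 0. The KI libraries lay below the flox libraries without overlap for Myod1, Myog, Myh3 and Mylpf, 4 of the 8 genes, and for none above, where 30.9% and 39.7% of all genes tested did (of the 8, these include Myh3 and Mylpf). In reads Mylpf overlapped (16 and 14 against 12 and 15), so it was kept apart by library scaling alone. Myog rested on 2 and 3 against 1 and 1 reads there, and no library had more than 6 reads of Myf5, Chrna1 or Chrng. In flox cultures Mylpf was 8.74-fold and Myh3 2.34-fold lower at day 16 than at day 8. Myog (5 and 6 reads at day 8, 2 and 3 at day 16) and Chrng (3 and 4, then 1 and 1) were lower without overlap as well, while Myod1 (1 and 1, then 4 and 6) and Chrna1 (2 and 0, then 3 and 3) were higher. Thus 4 of the 8 were lower and 2 higher without overlap, where 40.7% and 48.9% of all genes were, and the test called 77.1% of all genes. Of the other muscle genes, 21 of 58 rose and 17 fell between these days in flox cultures (38.4% and 38.7% of all genes), among the latter Pax7 and Pax3, regulators of muscle precursors that the dorsal neural tube also expresses, by 7.59 ± 0.22 and 3.25 ± 0.11.

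Other muscle genes in neural cultures fell more often than they rose in KI cells. At day 8, 17 of 58 fell and 7 rose (13.2% and 6.30% of all genes), with Tnni1, slow troponin I, lower by 4.56 ± 0.30 (adjusted p = 9.6e-07), Tnnt3 by 3.79 ± 0.44 and Smyd1 by 2.53 ± 0.33. Without the second flox library the count of calls was 15 in place of 24. At day 16, 20 of 58 fell and 9 rose, where 19.7% of all genes fell and 27.1% rose (46.9% in both directions). Mybpc1 fell by 6.43 ± 0.35 (adjusted p = 8.74e-08), from 9.39 to 0.107 CPM, after having been 1.55 ± 0.25 higher in KI at day 8, and this genotype effect differed between the days by -7.98 ± 0.44 (adjusted p = 4.75e-07), 1 of 25 such differences among the 58 (12 upward and 13 downward, where 33.2% of all genes differed, 19.2% upward and 14.0% downward). Cacna1s, Des, Tnni1 and Tnnt1 fell by 4.21, 3.09, 2.54 and 2.04. The cell-surface receptors Cdon and Boc, which promote myogenesis and also act in hedgehog signalling in the neural tube, fell by 2.33 ± 0.13 (adjusted p = 9.33e-08), from 146 to 28.4 CPM, and by 1.79 ± 0.09. Pygm (muscle glycogen phosphorylase) fell by 1.83 and Chrnb1, the beta subunit of the muscle acetylcholine receptor, by 1.51 ± 0.17 (adjusted p = 2.74e-05), while of the regulators Meox1 and Tbx1 fell by 2.04 and 1.88 and Met and Lbx1 rose by 0.85 and 0.54. Myh4 and Myh1, which encode adult fast myosin heavy chains, were higher in KI at day 16 by 2.06 ± 0.54 and 2.00 ± 0.36, at means of 0.752 and 1.07 CPM, whereas Myh3 was lower (0.241 against 0.569 CPM). The call of Myh4 ended under at least 1 alternative (adjusted p up to 0.118). Genes of the myosin heavy chain cluster, Myh3 included, are alike in sequence, and how the counting split shared reads is not given, so the values of single members are uncertain to that extent. Of all genes called at day 16, 57.9% were higher with the TMM scaling and 41.9% with upper-quartile scaling, which moved the median of all genes by -0.115.

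Neuron markers summed to 842 to 941 CPM in KI and 1260 to 1270 CPM in flox cultures at day 8, and to 6000 to 6740 against 3560 to 3710 CPM at day 16, with none of the 10 at 0 reads in a group. Smooth muscle markers summed to 56.3 to 67.5 CPM in KI and 94.1 to 101 CPM in flox cultures at day 16, where 6 of 8 fell. Heart markers summed to 4.36 to 4.48 against 17.5 to 18.2 CPM at day 8 and to 212 to 221 against 137 to 139 CPM at day 16, with Myl2 at 0 in flox cultures of both days and Myl7 at 0 in KI cultures of day 16. The day 16 sum was mostly Ryr2, the calcium release channel of heart and neurons (212 against 129 CPM in mean), and of the 8 heart markers tested there 1 rose and 2 fell, with a median of -0.58. How far these cell types bear on the muscle genes was not tested.

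In trophectoderm cultures Mylpf was the member that changed. It had 25.4 and 26.1 CPM in flox and 1.83 and 1.83 CPM in KI clones 27 and 48, and fell by 3.80 ± 0.21 on the log2 scale (edgeR adjusted p = 5.4e-09, 1.97e-39 to 2.48e-06 over the alternatives). The overlapping gene Septin1 fell with it, and Cdx2 and Pou5f1 differed between these cultures as given above, and their part in the result was not tested. Chrna1 had 1.82 and 1.52 CPM in flox and 0.932 and 1.23 CPM in KI (-0.61 ± 0.50, adjusted p = 0.331), without overlap but not called. Myh3 had 4 and 2 reads in flox and 19 and 10 in KI and passed the filter through the KI libraries in which it was higher, so no test of it is given. Without overlap, 38.1% of all genes were lower and 37.9% higher in KI. No other member passed the filter, and 50.9% of the 15532 genes tested were called. Chrng had 6 and 5 reads in flox and 1 and 0 in KI, Myod1 2 and Myf5 6 reads in a KI library each, and Myf6 and Myog none in any.

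In extraembryonic endoderm cultures Mylpf, the gene with 10 or more reads in each of the 4 libraries, was not called by edgeR or DESeq2, where edgeR called 35.5% of all genes. Mylpf had 0.696 and 0.944 CPM in flox and 1.17 and 0.815 CPM in KI (0.29 ± 0.34, adjusted p = 0.546). Chrna1 had 6 and 3 reads against 9 and 4, and Myh3 4 and 0 against 11 and 4. These 2 genes reached the filter with the help of the trophectoderm libraries fitted with them, so that a test in endoderm cultures says little about them. In CPM Myh3 alone did not overlap, higher in KI as were 34.7% of all genes (34.9% lower). Myf5 and Myf6 had no read in the 4 libraries, and Myog, Myod1 and Chrng at most 3 reads in any.

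Other muscle genes changed in both cultures in either direction. In trophectoderm cultures 19 of 53 fell in KI and 10 rose (24.2% and 26.7% of all genes, with the median of the 53 at -0.28), with Msc, a transcription factor of head muscle precursors, lower by 4.52 ± 0.90, Tnnt3 by 4.12 ± 0.56, Tnni2 by 3.23 ± 0.87 and Myh7 by 3.16 ± 0.16, and Myl4 higher by 1.38 ± 0.19. In endoderm cultures 9 fell and 10 rose (17.4% and 18.1%), among them Acta1, skeletal actin, higher by 2.01 ± 0.13 at a mean of 558 CPM, and Smyd1, Meox1, Tnni1 and Tnnt3 lower by 3.84, 3.32, 3.06 and 2.49. Under at least 1 alternative the calls of Tnni2 in trophectoderm (adjusted p up to 0.073) and of Meox1 (0.173) and Tnni1 (0.0536) in endoderm cultures ended. Smooth muscle markers summed to 201 to 236 CPM in KI and 406 to 414 CPM in flox trophectoderm cultures, and to 4670 to 5680 against 4150 to 4190 CPM in endoderm cultures. Neuron markers summed to 23.8 to 25.7 against 100 to 105 CPM in trophectoderm cultures (1 rose and 4 fell). In endoderm cultures they summed to 78.8 to 93.5 against 147 to 149 CPM, although 4 rose and 2 fell. Heart markers summed to 5.59 to 6.13 against 12.7 to 12.9 CPM and to 20.4 to 23.8 against 28.5 to 32.3 CPM.

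Mylpf stood apart from the other 7 genes in its distribution. It was the only member with reads in all 37 libraries and had its highest level in flox stem cells (75.6 CPM), then in KI stem cells (37.2 ± 0.634, n = 2) and flox trophectoderm cultures (25.7 ± 0.513, n = 2), with no overlap between these. Every other group lay at or below 3.60 CPM, the E9.5 controls (2.91 ± 0.195) included. Septin1, a septin gene, overlaps Mylpf in the RefSeq annotation, and whether the counting used strand is not given in the sources used here, so reads of the shared stretch cannot be told apart. Septin1 had 414 CPM in flox and 80.9 to 117 CPM in KI stem cells, and 15.5 to 17.2 against 0.896 to 1.90 CPM in trophectoderm cultures, where it fell by 3.53 ± 0.30 (adjusted p = 2.56e-07). It also fell by 0.76 ± 0.23 in E9.5 KI embryos (adjusted p = 0.017), at 6.36 to 7.15 CPM in controls and 3.84 to 4.25 CPM in KI. Over all 37 libraries Septin1 was the gene whose log2 level correlated most with that of Mylpf (r = 0.919), while over the 25 culture libraries Nr0b1 (r = 0.947), a gene of pluripotent cells, came first. This ranking for a single member was added after the values had been seen, and libraries of a culture share their origin.

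**Figure D5:**
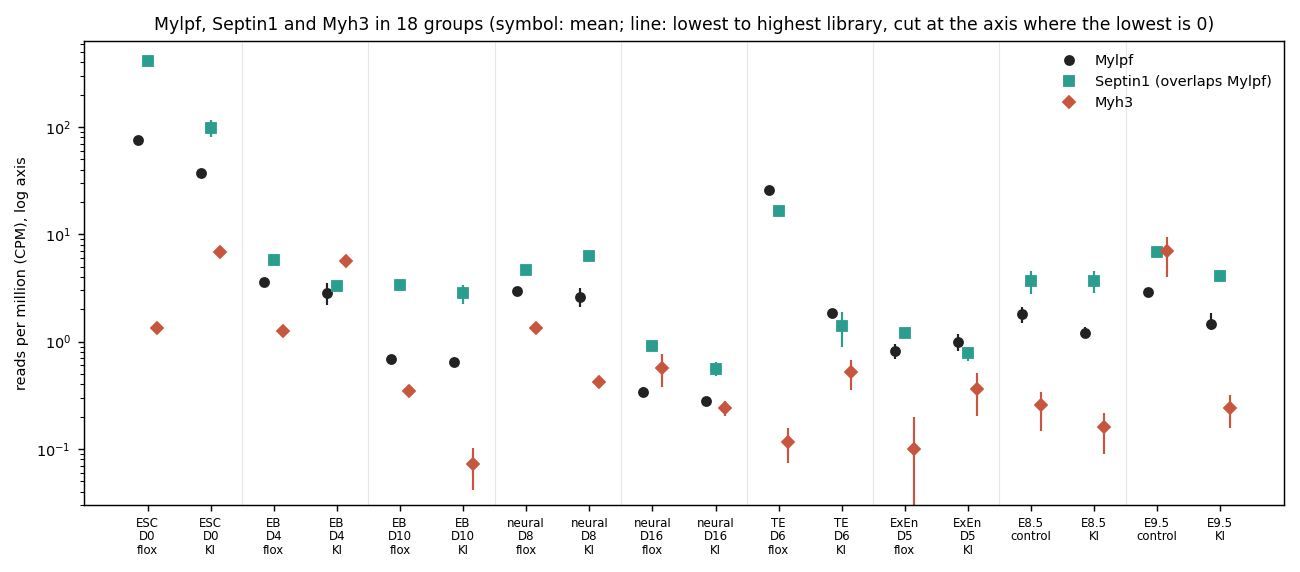
Mean CPM (log axis) of Mylpf, of Septin1, which overlaps it, and of Myh3 in 18 groups, with a line from the lowest to the highest library of a group, cut off where the lowest is 0. Heights are not comparable between genes because CPM is not per length; Mylpf and Septin1 are both highest in stem cells and lower in KI than in flox trophectoderm cultures.

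The other members ordered the samples differently. Myf5 was highest in E9.5 controls (2.53 ± 0.73 CPM, n = 3) and next in KI embryoid bodies of day 4 (1.71 ± 0.357, n = 2), whose ranges overlapped, and no other group averaged above 0.440 CPM. Myog and Myf6 were highest in E9.5 controls, with no other group mean above 0.769 CPM for Myog (1 flox library of embryoid bodies at day 10) or 0.119 CPM for Myf6. Myh3 was highest in E9.5 controls (7.06 ± 2.80), whose range of 3.99 to 9.48 CPM took in KI stem cells (6.88 ± 0.0348) and KI embryoid bodies of day 4 (5.66 ± 0.508), the latter below the stem cells without overlap, followed by flox stem cells at 1.35 CPM. Chrng was highest in E9.5 controls (0.702 ± 0.223), and Chrna1 in flox (1.67 ± 0.215) and KI (1.08 ± 0.213) trophectoderm cultures. Myod1 never reached 1 CPM, and its highest group mean, 0.268 ± 0.326 CPM in E8.5 KI embryos, came mostly from 14 reads in the second embryo.

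As a description of likeness, each member's log2(CPM + 0.5) profile was correlated with that of the others. Over the 12 embryos, Myog and Myh3 were closest (r = 0.966), Myf5 and Myf6 were each closest to Myog (r = 0.904 for both), Mylpf and Chrng to Myh3 (0.880 and 0.871), and Myod1 and Chrna1 to one another (0.75). Over the 25 culture libraries the adjacent genes Myf5 and Myf6 were closest (0.872). Outside the 8, the genes most like the mean of their standardized profiles, among genes with at least 1 CPM in 2 of the libraries, were Wfdc1 (0.819), Oc90 (0.810), Wnt16 (0.775), Tnnc2 (0.767), Tubb1 (0.739), Cbr2 (0.731), Nkx2-4 (0.727), Barhl1 (0.724), Sfta3-ps (0.718) and Epb42 (0.713) over 37 libraries. Over the 12 embryos they were Lhx3 (0.980), Hoxd12 (0.968), Brsk2 (0.955), Trp53i11 (0.946) and Tubb3 (0.944), and over the 25 cultures Cpt1b (0.837), Khk (0.766), Isyna1 (0.758), Tnnt1 (0.751) and Casr (0.743). Across embryos these profiles share the contrast that chose the genes, and embryos and libraries of a group share genotype and stage.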

How the data were processed

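RNA was poly(A)-selected and made into libraries with NEBNext kits, per the labels' protocols. Each deposited table lists RefSeq transcripts with their read count and RPKM, per the file headers. The counts deposited by the authors are whole numbers that are not normalized, and the RPKM values deposited by the authors are scaled for length and depth. The submitters' processing notes name bcl2fastq, Bowtie2, STAR, SICER 1.1 and mm9 with no role. Which program counted the reads, with which annotation and whether by strand, is not given in the sources used here.

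Of 29082 accessions, 28432 were matched to symbols in the gene table and 650 were not. Per gene the transcript with the most reads over 37 libraries was used (each of the 8 genes has 1 transcript), giving 23109 entries, 8 of them described here. The 8 genes and all lists were chosen with earlier results of these data known. Counts were tested with edgeR 4.0.16 (quasi-likelihood, filterByExpr with a minimum count of 10, TMM, Benjamini-Hochberg adjustment over all genes, called at 0.05), in R 4.3.3, and scripts were tested on simulated data. Embryos (4 groups), neural cultures (4 groups), trophectoderm with endoderm cultures (4 groups), the stem cell and embryoid body course, and the KI embryoid bodies were fitted separately. Printed CPM use TMM factors over all 37 libraries. Other genes named are, per comparison and list, up to 2 of the largest called rises and falls, and genes named besides these were added after their values were seen. The rule picks 158 calls over all comparisons, of which the text prints a part, and the others are not reported here.

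Alternatives were DESeq2 1.42.0, no filter, upper-quartile scaling, the sum over transcripts, fits of the compared libraries alone, a replicate block, each library left out, and halved counts, the last added after even counts were seen. Among 23 replicate pairs the chi-square per degree of freedom was 1.5 to 54.8, and none was counted as a duplicate. The lowest were flox pairs, at 1.5 (neural day 8), 2.76 (endoderm) and 3.99 (trophectoderm). The KI clones of these cultures had 22.2, 10.8 and 9.68. Whether these flox libraries came from separate cultures is not given, so p-values that use them may be too small. Numbers shared by titles were not taken as pairing, because the labels do not state their meaning. Correlations of deviations within E8.5 numbers were 0.105, 0.108 and 0.046, all above those between numbers (-0.097 to -0.011). Within E9.5 numbers they ran from -0.021 to 0.051 and between numbers from -0.039 to 0.013. A block by number gave 1321 calls over all genes at E8.5 in place of 843, so the choice matters at that stage. The KI clones of neural cultures and embryoid bodies are the same lines over days, with correlations of 0.101 between the neural days and 0.042 to 0.104 among the embryoid body days. The other 63 samples of the series were not analysed here.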

Additional observations from a re-analysis of the deposited data

Results flagged for a closer look

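In CPM, the genotype difference of 5 members took opposite directions between days of the stem cell and embryoid body course, in every library. How many of all genes did so was not computed, so nothing is read from this count. The differences were not tested, because flox has 1 library a day and day 10 was among the samples that chose the genes. On the log2(CPM + 0.5) scale, the KI minus flox difference at day 4 less that at day 10 was 2.77 for Myf5, 2.36 for Myh3, 0.93 for Myod1 and 0.30 for Myf6, since these were higher in KI at day 4 and lower at day 10. Myod1 rests on at most 6 reads a library. Myf6 had 0 reads in flox and 1 and 2 in KI at day 4, and 1 against 0 and 0 at day 10. The difference in stem cells less that at day 10 was 2.56 for Myh3. For Chrna1, lower in KI stem cells and higher in KI embryoid bodies, the difference in stem cells minus that at day 4 was -0.92, and minus that at day 10 it was -0.46. Its direction in stem cells held in CPM only, because its reads overlapped (10 in flox, 11 and 8 in KI).

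Among other skeletal muscle genes, the genotype effect differed between E8.5 and E9.5 for 7 by the interaction test of edgeR. These were Tnnc2 (-3.05), Cdh15 (-2.37), Eya2 (-1.23), Hrc (1.60), Jph1 (1.04), Tcf21 (0.95) and Mef2c (0.76), on the log2 scale, and the calls of Tnnc2, Jph1 and Tcf21 ended under at least 1 alternative. Between neural day 8 and day 16 it differed for 25 of 58, where 33.2% of all genes did.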

How the results depend on the processing

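Among recomputed counts of other muscle genes and medians of the 8 genes at embryoid body day 10, 130 stayed near the value reported (within 1.5 times for a count, 1 SD for the median) and 14 did not. Over the embryoid body course the 1 call became 9 with DESeq2, 2 without a filter, 2 with the sum over transcripts and 1 to 10 with a library left out. With an embryo left out, the E8.5 calls ranged from 3 to 10. With a library left out, the neural day 8 calls ranged from 15 to 22. The median log2 difference of the 8 genes at day 10 was -0.52, and -0.29 with 1 CPM added, -0.39 with the sum over transcripts, and -0.55 and -0.48 without a KI clone. Of the 158 calls of other genes that the naming rule picks over all comparisons, 44 ended under at least 1 alternative, 168 times in all, and the direction stayed. Of the members' group levels, 238 stayed near the value reported and 50 moved by more than the spread, most under the sum over transcripts. Each member has 1 transcript, so its counts are the same there and only the library totals used for scaling differ. The same holds for the day 10 median of -0.39. Reversed signs occurred in members that were not called. At E8.5, Myf5 (0.05) was at -0.01 with the replicate block. With an embryo left out, Myf5 ranged from -0.45 to 0.43 (-0.16 and -0.03 without controls 1 and 3) and Chrna1 (0.42) from -0.07 to 0.69. Fitted values of Myf6 (0.39) ran from -0.97 to 4.60 (-0.14 and -0.27 without controls 1 and 2). Those of Chrng (2.63) ran from -1.95 to 4.59. Myf6 and Chrng had at most 8 reads in any E8.5 embryo and passed the filter through the E9.5 controls. Their values and sign changes therefore say nothing about an effect at E8.5. With a library left out, Mylpf (-0.17) ranged from -0.48 to 0.07 in neural cultures of day 8. In endoderm cultures Mylpf ranged from -0.0023 to 0.52 and Chrna1 from -0.16 to 0.98. Chrna1 reached the filter there with the help of the trophectoderm libraries, so its endoderm range says little. The cause of the reversed signs was not tested. With the replicate block the counts of calls were 34 at E9.5, 8 at E8.5, 10 for the stage difference of the genotype effect, 39 for flox neural cultures, 29 for the neural difference and 38 for KI embryoid bodies, all within 1.5 times of those without it. With upper-quartile scaling, 46.7% of the genes called for the neural difference were higher, against 57.8% with TMM. Counts of calls over all genes, behind the background shares, moved by more than 1.5 times in 23 cases. At E8.5 they went from 843 to 1321 with the replicate block and to between 363 and 755 with an embryo left out, over the embryoid body course from 113 to 778 with DESeq2 and to between 26 and 356 with a library left out. With a library left out, the lowest were 607 (of 1024) for the stage difference of the genotype effect, 1896 (of 3202) at neural day 8, 3621 (of 5450) for the neural difference and 3641 (of 5520) in endoderm cultures. Halved counts gave 34 calls at E9.5, 9 at E8.5, 31 in trophectoderm and 21 in endoderm cultures. Members with under 10 reads in every library compared can show no more than presence at this depth.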
